A study of Mus musculus with 8 samples.

Results

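The genes described here encode the subunits of the vacuolar ATPase (V-ATPase), which acidifies lysosomes, together with the core autophagy proteins and a few lysosomal membrane proteins and transcription factors. Members were defined by symbol, with earlier results of these data known. They were all mouse genes whose symbol begins with Atp6v, or with Atg followed by a digit, plus 20 named genes from Becn1 to Nbr1. The rule found 61 of the 24594 genes listed in the count table. Of these, 59 had a count in at least 1 library, and Atp6v0d2 and Atp6v1e2 had none in any of the 8 libraries. Low counts kept Atp6v0a4, Atp6v1g3 and Atp6v1fnb out of the test, which left 56 members tested among 12816 genes.

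RNA was measured in luminal progenitors (LP) and in mature luminal cells, the differentiated luminal fraction, sorted by flow cytometry from the virgin mammary gland of mice. Both fractions came from wild type, untreated C57BL/6J mice, and the sort used EpCAM, CD49f, cKit and CD14, with LP as the c-Kit high cells and mature cells as the c-Kit low cells. The labels give no age for these mice, and the study's methods give only an age range for the mice of the whole study. There were 4 LP and 4 mature libraries with between 4410049 and 7791593 counts on genes, and the labels do not say whether each came from a different mouse. The description of each LP library begins with the same number as that of the mature library of its replicate, but what this number marks is not said, so the p-values measure the spread between these libraries. In RNA from bulk sorted cells, fewer cells of a type and less RNA per cell cannot be told apart.

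The V-ATPase is a rotary proton pump. Its cytosolic V1 sector hydrolyses ATP and its membrane V0 sector carries protons into the lysosome or endosome. Autophagy delivers cytoplasm to the same lysosomes: a kinase complex starts it, a lipid kinase, lipid transfer proteins and membrane proteins build the double membrane, and a pair of ubiquitin-like conjugation systems couple the Atg8 proteins to that membrane, where cargo receptors bind. The transcription factors TFEB, TFE3 and MITF are known to bind E-box motifs in the promoters of lysosomal and autophagy genes, and in the mammary gland lysosomes and autophagy are best known from the regression of the tissue after lactation.

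Promoters are shown only for members that differed between the fractions and held the extended form of this motif near an annotated start. They were 2 members with more transcript in LP and 2 with more in mature cells. The E-box CACGTG and its extended form TCACGTGA, each of which reads the same on both strands, were searched from 250 bases before to 50 bases after each annotated start in RefSeq promoters of GRCm38.p6, the assembly also called mm10. The stretches below run from 150 bases before the start to 30 bases past it, with CACGTG in capitals and all of TCACGTGA in capitals where it is present. They lie at chr16:44139230-44139409 on the minus strand, chr8:105566035-105566214 on the minus strand, chr17:26676246-26676425 on the plus strand and chr8:3500369-3500548 on the plus strand.
Atp6v1a promoter: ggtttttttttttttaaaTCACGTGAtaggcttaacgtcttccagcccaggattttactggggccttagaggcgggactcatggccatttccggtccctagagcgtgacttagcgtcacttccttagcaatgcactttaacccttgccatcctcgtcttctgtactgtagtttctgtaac
Atp6v0d1 promoter: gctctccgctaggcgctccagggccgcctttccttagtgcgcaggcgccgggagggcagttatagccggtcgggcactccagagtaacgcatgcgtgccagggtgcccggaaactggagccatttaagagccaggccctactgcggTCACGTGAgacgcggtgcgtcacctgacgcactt
Atp6v0e promoter: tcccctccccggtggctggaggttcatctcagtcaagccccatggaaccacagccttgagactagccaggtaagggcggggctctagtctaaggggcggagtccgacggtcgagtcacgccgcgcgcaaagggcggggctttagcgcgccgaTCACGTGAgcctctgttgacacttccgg
Mcoln1 promoter: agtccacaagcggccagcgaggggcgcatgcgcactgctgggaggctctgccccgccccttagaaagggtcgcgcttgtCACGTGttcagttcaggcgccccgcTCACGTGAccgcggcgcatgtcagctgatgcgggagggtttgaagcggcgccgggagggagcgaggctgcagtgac

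In Mcoln1 a CACGTG began 71 bases before the start and a second one, in the extended form, 45 bases before it. The motif began 131 bases before the start in Atp6v1a, 3 bases before it in Atp6v0d1 and 3 bases past it in Atp6v0e. The start used for Atp6v1a lies inside the annotated span of the gene (chr16:44085402-44139702), as does the whole stretch shown. Its motif therefore lies within the gene span and not upstream of it. Of the 50 counted members with a promoter in the table, 5 held the extended form, the fifth being Atg3, against 304 of 27025 genes of the whole table (1.12%) and 224 of 10164 tested genes (2.2%). The shorter CACGTG was in 10 of the 50, against 8.09% of the whole table and 11.7% of tested genes. Lamp1, which did not pass the test, held 4 copies of CACGTG and Atp6v0b held 2. A match in these letters says nothing of whether a factor binds there. Of the 13 members that passed the test, Atp6v1b2, Atp6v1h, Atp6v0a2, Atg12 and Atg16l1 had no entry. Among the 8 with an entry, 4 held CACGTG, a share that was not tested. Atp6v1f, Atp6v0e2, Wipi2 and Atg4c had an entry and held no CACGTG.

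The 3 factors themselves were at low levels in both fractions, and none passed edgeR's quasi-likelihood test or the test of DESeq2, or had an unadjusted p under 0.05 in edgeR. Tfeb was at 5.95, 5.46, 5.98 and 4.16 CPM (read counts divided by the size of each library) in LP replicates 1 to 4 and at 2.39, 7.09, 6.93 and 7.84 CPM in mature replicates 1 to 4. Tfe3, the most abundant of them per kilobase of exon, was at 27.6, 22.6, 23.4 and 23.9 CPM in LP and at 14.9, 23.1, 9.38 and 26.1 CPM in mature cells. For each of the 3 factors the libraries of the fractions overlapped. Their log2 fold changes of LP over mature were 0.41 ± 0.32 (SE of the fit) for Tfe3, -0.17 ± 0.47 for Tfeb and -0.41 ± 0.68 for Mitf, with adjusted p of 0.387, 0.831 and 0.703 by edgeR's quasi-likelihood test. The signs for Tfeb and Mitf reversed without mature replicate 4.

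Of the 56 tested members, 13 passed an adjusted p of 0.05 in edgeR's quasi-likelihood test, a share of 23.2% beside 24.7% of all tested genes. Higher in LP were 7 of them, 12.5% of members beside 10.9% of all tested genes. Higher in mature cells were 6, beside 13.8% of all tested genes. With all 8 libraries members were thus called about as often as other genes, and the counts say nothing particular to them. The libraries of the fractions did not overlap in CPM for 15 members (26.8%, beside 29.5% of all tested genes), 8 with LP higher (beside 14.0%) and 7 with mature higher (beside 15.5%). The total of 13 fell to 7, 8 and 6 when LP replicate 2, 3 or 4 was left out, and to 8 when mature replicate 1 was. In these fits 12.5%, 14.0%, 10.5% and 14.0% of the members tested were called, beside 17.8%, 20.9%, 18.4% and 20.6% of all genes, so the members' share was then the lower one, a difference that was not tested. The median log2 fold change was -0.13 over the members and near 0 over all tested genes, and its median size was 0.41 over the members and 0.55 over all. The called members were spread unevenly over the roles, a difference that was not tested. They were 8 of 18 tested V-ATPase genes (44.4%) and 5 of 38 tested autophagy and lysosome genes (13.2%), beside 24.7% of all tested genes. The V-ATPase count was 4 without LP replicate 2 or 4, beside 17.8% and 18.4% of all genes called in these fits. It was 5 without LP replicate 1 or mature replicate 1, beside 18.6% and 20.6% of all genes. Without mature replicate 3 it was 9, beside 26.2% of all genes.

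**Figure D1:**
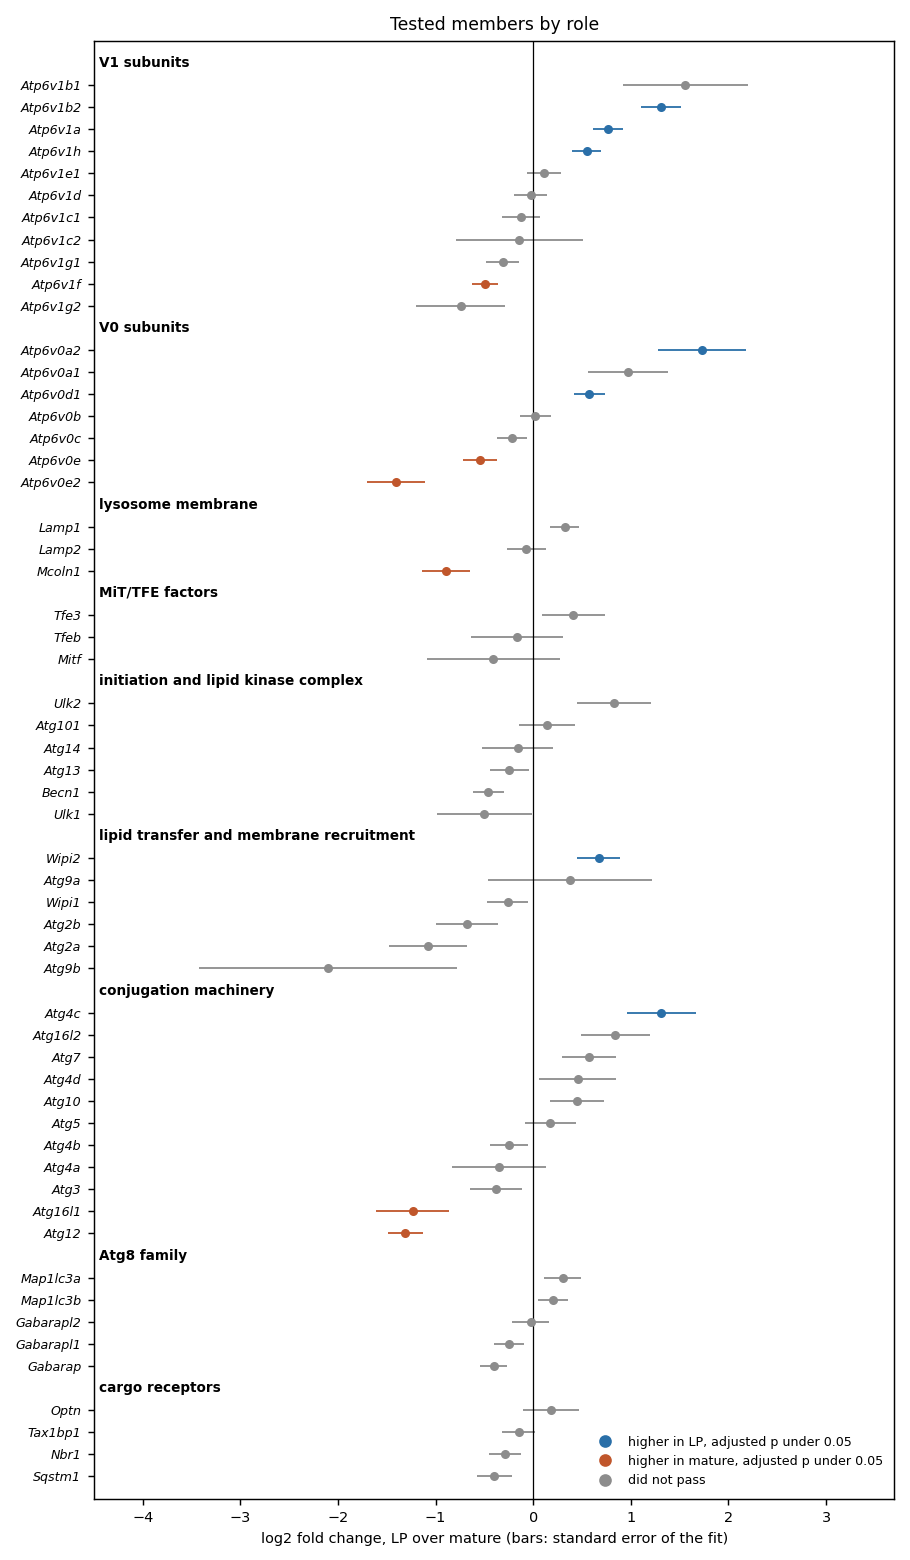
Log2 fold change of LP over mature cells for the 56 tested members, grouped by role, with points to the right higher in LP and bars for the standard error of the fit. Blue and orange points passed an adjusted p of 0.05 in edgeR's quasi-likelihood test. The 8 called V-ATPase genes lie on both sides of 0, and no member of the Atg8 family, the cargo receptors, the initiation complex or the MiT/TFE factors passed in that test, while DESeq2 also called Gabarap, Becn1 and Atg2a.

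The libraries were not alike within the mature group, and this bears on several members. On the second principal component of log2 CPM over all tested genes, replicates 1 and 2 lay above 3 and 4 in both fractions. The values for replicates 1 to 4 were 16.1, 20.1, -11.2 and 4.59 in LP and 32.8, 43.1, -57.0 and -48.4 in mature cells. Summed over 5 LP markers (Kit, Cd14, Elf5, Aldh1a3 and Ltf), the level was 23487 to 34030 CPM in LP libraries, 408 and 728 CPM in mature replicates 1 and 2, and 1984 and 1642 CPM in mature replicates 3 and 4. Over 7 mature luminal markers the sum was 374 to 1124 CPM in LP and 6173 to 8723 CPM in mature cells, so each fraction carried the markers of its label. Kit and Cd14 were among the sort markers, so their difference follows from the sort and is no independent check. Outside the sort, Ltf, Aldh1a3 and Elf5 also had higher means in LP. Their means were 12534 against 621, 638 against 247 and 217 against 53.6 CPM in mature cells. For Aldh1a3 the fractions came close, at 422 CPM in LP replicate 3 and 378 CPM in mature replicate 4. Of the 5 LP markers, all tested, only 4 were called higher in LP. Markers of other cells were low: the basal list summed to at most 17.5 CPM in LP and 49.4 CPM in mature replicate 3, the macrophage list to at most 48.7 CPM in LP, most of it Cd163, with C1qa at 0 throughout, and the fibroblast list to 7.35 to 37.9 CPM in LP, 134 and 173 CPM in mature replicates 1 and 2, nearly all of it Dcn, and 20.6 and 20.8 CPM in mature replicates 3 and 4. Without mature replicates 3 and 4, 9 members were called, 7 of them among the 13, which is 16.1% of members beside 26.5% of all genes. Without mature replicate 3 alone 12 were called, 10 of them among the 13, or 21.4% beside 26.2% of all genes.

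In the V1 sector, the catalytic A subunit, the B2 subunit and the H subunit were higher in LP and the F subunit was higher in mature cells. Atp6v1b2 (mm10, chr8:69088736-69113718), which encodes the B subunit found in most tissues and forms the ATP-binding ring with A, was at 135, 133, 114 and 127 CPM in LP and at 44.0, 34.7, 61.1 and 65.2 CPM in mature cells. Every LP library was above every mature library, and the LP values lay close together. The fitted difference was 2.47-fold (log2 1.31 ± 0.21, adjusted p = 0.00167, edgeR). The study placed this gene in its own LP gene set, made from these samples, which is therefore no independent evidence. Its annotated span overlaps Slc18a1 by 503 bases, and reads there cannot be assigned without strand.

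Atp6v1a (chr16:44085402-44139702), the catalytic A subunit, was at 377, 393, 410.2 and 404 CPM in LP and at 207, 203, 242 and 278 CPM in mature cells. The LP libraries differed little among themselves and all lay above the mature libraries. LP exceeded mature cells 1.70-fold (log2 0.77 ± 0.15, adjusted p = 0.00518, edgeR). Atp6v1h (chr1:5082978-5163213), the regulatory H subunit that couples ATP hydrolysis to proton flow, was at 136, 134, 119.5 and 158 CPM in LP and at 81.1, 93.8, 106 and 94.2 CPM in mature cells. Again no mature library reached the lowest LP library, with a smaller difference (log2 0.55 ± 0.15, adjusted p = 0.0231, edgeR), and the call was lost without LP replicate 1, 2 or 4 or mature replicate 1.

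Atp6v1f (chr6:29467783-29470509), the F subunit of the central rotor stalk, went the other way, with 136, 153, 139 and 137 CPM in LP and 191, 193, 193 and 221 CPM in mature cells. The fractions did not overlap, and mature replicate 4 stood above the other mature libraries. The fitted log2 difference was -0.50 ± 0.13 (adjusted p = 0.0201, edgeR), and it missed the threshold with no filter on low counts, without LP replicate 1 or 4, without mature replicate 4 and without mature replicates 3 and 4 together. Atp6v1f shared 10.8% of its 51-base stretches with another annotated transcript, 51 bases being the read length.

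The second B subunit gene, Atp6v1b1 (chr6:83743017-83758855), known from proton-secreting cells of the kidney and inner ear, had the largest log2 fold change in V1 and did not pass. It was at 647, 763, 292 and 304 CPM in LP and at 48.1, 47.0, 388 and 198 CPM in mature cells. LP replicates 1 and 2 were highest, mature replicates 1 and 2 lowest, and mature replicate 3 exceeded LP replicates 3 and 4, so the fractions overlapped. The log2 fold change was 1.56 ± 0.64 (adjusted p = 0.101, edgeR). Without mature replicate 3 it was 2.37 (adjusted p = 0.0150, edgeR), and without mature replicates 3 and 4 it was 3.44 (adjusted p = 0.000976, edgeR). Those are the mature libraries with the highest sum of LP markers, and the part of this in the result was not tested. They are also the mature libraries with the most Atp6v1b1, so leaving them out raises the difference by construction. The fit without both was added after the data were seen.

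**Figure D2:**
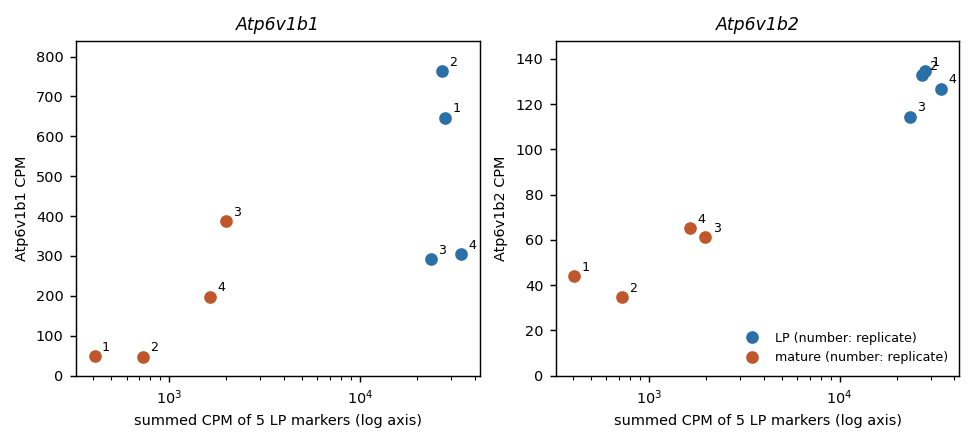
CPM of Atp6v1b1 (left) and Atp6v1b2 (right) in each library against the summed CPM of 5 LP markers on a log axis, with the replicate number beside each point. Mature replicates 3 and 4, with the highest marker sums among mature libraries, are at 388 and 198 CPM of Atp6v1b1, while Atp6v1b2 stays at 65.2 CPM or less in all mature libraries.

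Per kilobase of exon, Atp6v1b1 made up most of the B subunit transcripts in every library. Its share of Atp6v1b1 and Atp6v1b2 together was 85.3%, 87.4%, 75.5% and 74.4% in LP and 57.0%, 62.2%, 88.5% and 78.6% in mature cells. The share was lowest in mature replicates 1 and 2 and highest in mature replicate 3, so the mix did not separate the fractions. The sum of both genes was 173, 199.2, 88.2 and 93.4 CPM per kilobase in LP and 19.3, 17.3, 99.99 and 57.5 CPM per kilobase in mature cells.

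The most abundant V1 transcript per kilobase was Atp6v1g1, a stalk subunit, at 331 CPM per kilobase as the mean of the fractions. Its log2 fold change was -0.31 ± 0.17 and did not pass (adjusted p = 0.198, edgeR). Atp6v1g1 shared 18.9% of its stretches of read length with the transcripts Gm13453 and Gm12344. It made up at least 98.6% of the G subunit transcripts per kilobase in every library, and Atp6v1c1 made up 89.0% to 98.4% of the C subunit transcripts. Of the untested genes, Atp6v1g3 had 15 and 1 counts in mature replicates 1 and 2 and none elsewhere. Atp6v1fnb, a neighbour of Atp6v1f that carries the prefix by name only, had 1 count in all.

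**Figure D3:**
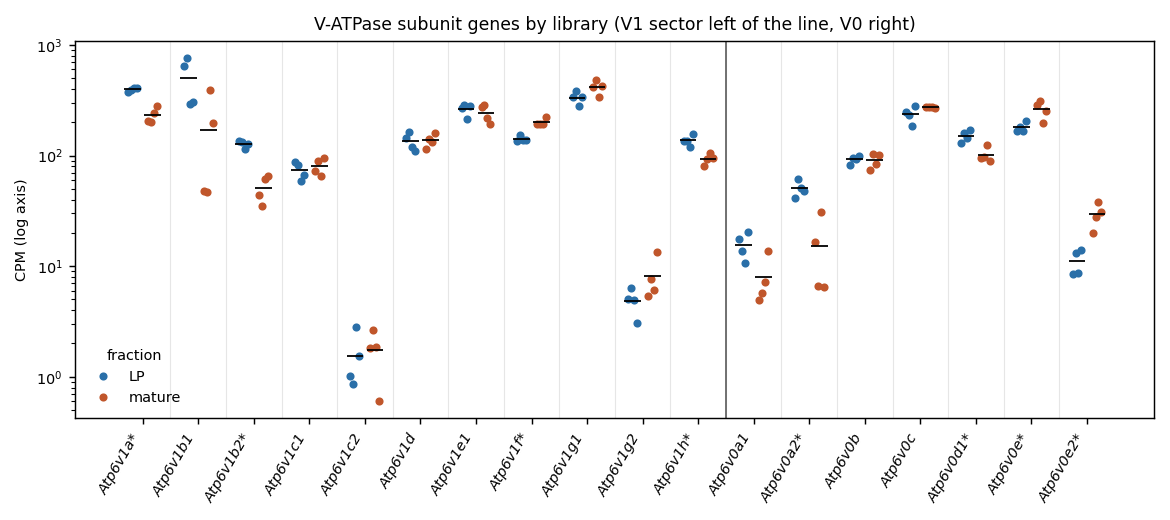
CPM of the 18 tested V-ATPase genes on a log axis in each LP (blue) and mature (orange) library, with black bars for the mean of 4 libraries and asterisks on genes with an adjusted p under 0.05. Atp6v1a, Atp6v1b2, Atp6v1h, Atp6v0a2 and Atp6v0d1 are higher in LP, and Atp6v1f, Atp6v0e and Atp6v0e2 are higher in mature cells, while Atp6v1b1 spreads widely within both fractions.

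In the V0 sector, the a2 and d1 subunits were higher in LP and both genes of the small e subunit were higher in mature cells. Atp6v0a2 (chr5:124629052-124724455), an isoform of the large membrane subunit a that steers the pump to Golgi and endosomal membranes, was at 41.5, 61.7, 50.8 and 48.1 CPM in LP and at 16.5, 6.57, 30.7 and 6.48 CPM in mature cells. All LP libraries were above all mature libraries, but the mature values spread more widely. The 3.32-fold difference (log2 1.73 ± 0.45, adjusted p = 0.0183, edgeR) was the largest of the called members and missed the threshold without LP replicate 2. Atp6v0a2 shared 8.32% of its 51-base stretches with the transcript 4930404A12Rik.

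Atp6v0d1 (chr8:105524461-105566064), the d subunit that joins the central stalk to the membrane ring, was at 129.5, 159.6, 144 and 172 CPM in LP and at 95.9, 96.7, 124 and 90.1 CPM in mature cells. The fractions did not overlap, with mature replicate 3 close to LP replicate 1. The log2 fold change was 0.57 ± 0.16 (adjusted p = 0.0241, edgeR) and was not called without LP replicate 2 or 4 or mature replicate 1, 2 or 4. Atp6v0a1, another a isoform, lay in the same direction without passing (log2 0.97 ± 0.41, adjusted p = 0.106, edgeR), and its libraries overlapped.

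Atp6v0e2 (chr6:48537569-48541801), the less abundant e isoform, was at 8.57, 13.1, 8.63 and 14.01 CPM in LP and at 20.1, 28.1, 38.1 and 31.0 CPM in mature cells. Every mature library was above every LP library. The difference of 2.64-fold (log2 -1.40 ± 0.30, adjusted p = 0.00699, edgeR) narrowly missed the threshold without mature replicates 3 and 4 (log2 -1.07, adjusted p = 0.0529, edgeR). Atp6v0e (chr17:26676396-26699647) was at 166, 179, 168 and 205 CPM in LP and at 289, 314, 195 and 252 CPM in mature cells. Here mature replicate 3 fell below LP replicate 4. The log2 fold change was -0.55 ± 0.18 (adjusted p = 0.0424, edgeR), and 7 of the 8 fits that each left out a library lost the call, the exception being the fit without mature replicate 3. It was also lost with no filter on low counts (adjusted p = 0.0847, edgeR).

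The e subunit sum per kilobase was 48.3 to 61.0 CPM in LP and 68.5 to 96.5 CPM in mature cells, and the share of Atp6v0e2 in it was 7.45%, 10.2%, 7.42% and 9.64% in LP and 9.78%, 12.2%, 23.4% and 16.1% in mature cells. Atp6v0e made up most of the e transcripts in all 8 libraries. For the a subunit the sum was 9.08 to 11.8 CPM per kilobase in LP and 1.91 to 6.37 in mature cells, with Atp6v0a2 the larger part in 7 of the 8 libraries and Atp6v0a1 in mature replicate 4. Atp6v0a4, known from acid-secreting kidney cells, had 7, 19, 7 and 2 counts in LP and 4, 1, 24 and 15 counts in mature cells and was not tested. Atp6v0c, the proton-carrying ring subunit, had the most CPM per kilobase of the V0 genes as the mean of the fractions, although in LP alone Atp6v0d1 was higher, at 84.3 against 69.6. Atp6v0c did not pass (log2 -0.22 ± 0.16, adjusted p = 0.342, edgeR). It shared 10.7% of its stretches of read length with other annotated transcripts, mainly Atp6v0c-ps2.

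**Figure D4:**
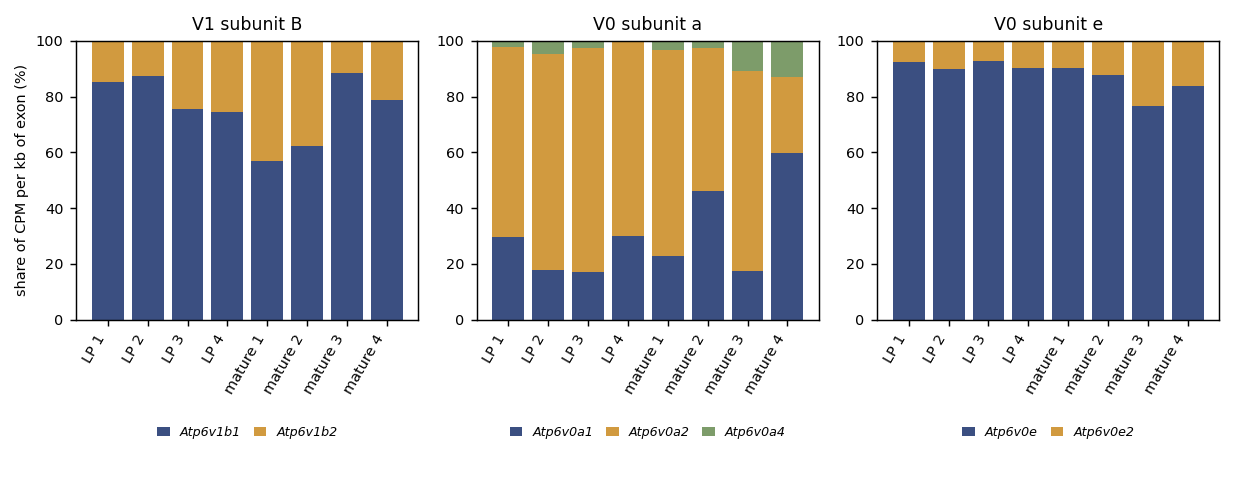
Share of each gene in the CPM per kilobase of exon of its subunit, for V1 subunit B, V0 subunit a and V0 subunit e, in each library. Atp6v1b1 and Atp6v0e make up most of their subunit in all 8 libraries, and the share of Atp6v0a1 is highest in mature replicate 4.

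Among the lysosomal membrane genes, Mcoln1 was higher in mature cells and the 2 genes for the abundant membrane glycoproteins Lamp1 and Lamp2 did not pass. Mcoln1 (chr8:3500519-3515232), which encodes a calcium channel of the lysosome membrane, was at 32.1, 23.0, 24.4 and 24.6 CPM in LP and at 59.6, 34.9, 61.2 and 37.2 CPM in mature cells. The mature libraries formed a high and a low pair, replicates 1 and 3 against 2 and 4, and the lower pair was still above LP replicate 1. The log2 fold change was -0.89 ± 0.24 (adjusted p = 0.0221, edgeR), and the call was lost without LP replicate 2, 3 or 4, without mature replicate 1 or 3, without both libraries numbered 3 and without mature replicates 3 and 4 together. Lamp1 was higher in every LP library than in any mature library, at 410.3 to 512 against 336 to 398 CPM, with a log2 fold change of 0.32 ± 0.15 that did not pass (adjusted p = 0.142, edgeR).

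None of the 6 genes of the kinase and lipid kinase complexes that start autophagy passed in edgeR's quasi-likelihood test. The one with an unadjusted p under 0.05 was Becn1, a lipid kinase subunit, which DESeq2 called. Becn1 shared 36.7% of its stretches of read length with other annotated transcripts, mainly Cntd1. Its annotated span overlaps Cntd1 by 444 bases, and how such reads were counted is not given. Ulk2, a starting kinase, had the largest log2 fold change of the 6 genes (0.83 ± 0.38, adjusted p = 0.136, edgeR). Its LP libraries ran from 11.5 to 38.7 CPM and its mature libraries from 11.2 to 17.8 CPM. Atg101, a kinase partner and the most abundant of the group per kilobase, had a log2 fold change of 0.14 ± 0.29 with 1 mature library, replicate 3, far above the others. Without that library Atg101 was called higher in LP (log2 0.59, adjusted p = 0.0367, edgeR).

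Of the 6 genes for membrane supply and lipid recognition, Wipi2 passed in edgeR's quasi-likelihood test. Other fits called further genes of this group higher in mature cells. Atg2a was called by DESeq2, by edgeR's likelihood ratio and exact tests and under a minimum of 10 counts per library, Wipi1 without both libraries numbered 3 (adjusted p = 0.0368, edgeR), and Atg9b without LP replicate 1. Wipi2 (chr5:142629533-142669672) binds the phosphoinositide that the lipid kinase makes and recruits the conjugation machinery through Atg16l1. It was at 49.4, 45.6, 57.6 and 58.4 CPM in LP and at 43.2, 37.8, 27.3 and 24.4 CPM in mature cells. The lowest LP library was close to the highest mature library, without overlap. The log2 fold change was 0.67 ± 0.22 with an adjusted p of 0.0486 by edgeR, close to the threshold, and 7 of the 8 fits that left out a library lost it, all but the fit without mature replicate 1. The fits without both libraries numbered 3 and without mature replicates 3 and 4 lost it too (adjusted p = 0.166 and 0.168, edgeR). Its relative Wipi1, with the most transcripts per kilobase of this group, lay the other way without passing (log2 -0.26 ± 0.21, adjusted p = 0.404, edgeR). Atg9b, a membrane protein gene, had 0 counts in LP replicates 2 to 4 and at most 4.73 CPM in any library, so its log2 fold change of -2.10 ± 1.32 was poorly determined.

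In the conjugation machinery, Atg12 and Atg16l1 were higher in mature cells and Atg4c was higher in LP. Atg12, on chromosome 18, encodes the ubiquitin-like protein that is joined to Atg5 and had the smallest adjusted p of all members. It was at 50.4, 60.4, 60.8 and 55.2 CPM in LP and at 178, 140.3, 107 and 137 CPM in mature cells. Every mature library stood well above every LP library, with mature replicate 3 the nearest. Mature cells exceeded LP 2.48-fold (log2 -1.31 ± 0.18, adjusted p = 0.000806, edgeR). The study placed Atg12 in its mature gene set, made from these samples, which is no independent evidence. Its annotated span overlaps Ap3s1 by 31 bases.

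Atg16l1 (chr1:87756007-87792428), which binds the Atg12 and Atg5 conjugate and brings it to the membrane, was at 9.15, 17.5, 9.30 and 10.96 CPM in LP and at 46.0, 15.5, 28.0 and 20.9 CPM in mature cells. LP replicate 2 was above mature replicate 2, so the fractions overlapped. The log2 fold change was -1.24 ± 0.38 (adjusted p = 0.0356, edgeR), and it was not called without LP replicate 1, 3 or 4, without mature replicate 1 or 3, without mature replicates 3 and 4 together, without both libraries numbered 3 or with no filter on low counts. Its relative Atg16l2, the uncalled gene of this group with the largest change, lay the other way (log2 0.84 ± 0.35, adjusted p = 0.105, edgeR).

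Atg4c (chr4:99189159-99297258), a protease that trims Atg8 proteins, was at 32.5, 45.6, 76.9 and 44.7 CPM in LP and at 9.98, 29.2, 21.9 and 19.7 CPM in mature cells. The lowest LP library was just above the highest mature library, and LP replicate 3 was the highest of all. LP exceeded mature cells 2.48-fold (log2 1.31 ± 0.35, adjusted p = 0.0202, edgeR), but the call was lost without LP replicate 3, without both libraries numbered 3 and without mature replicates 3 and 4. Atg3, the enzyme that transfers Atg8 proteins to lipid and the most abundant gene of the group per kilobase, did not pass (log2 -0.38 ± 0.27, adjusted p = 0.335, edgeR).

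**Figure D5:**
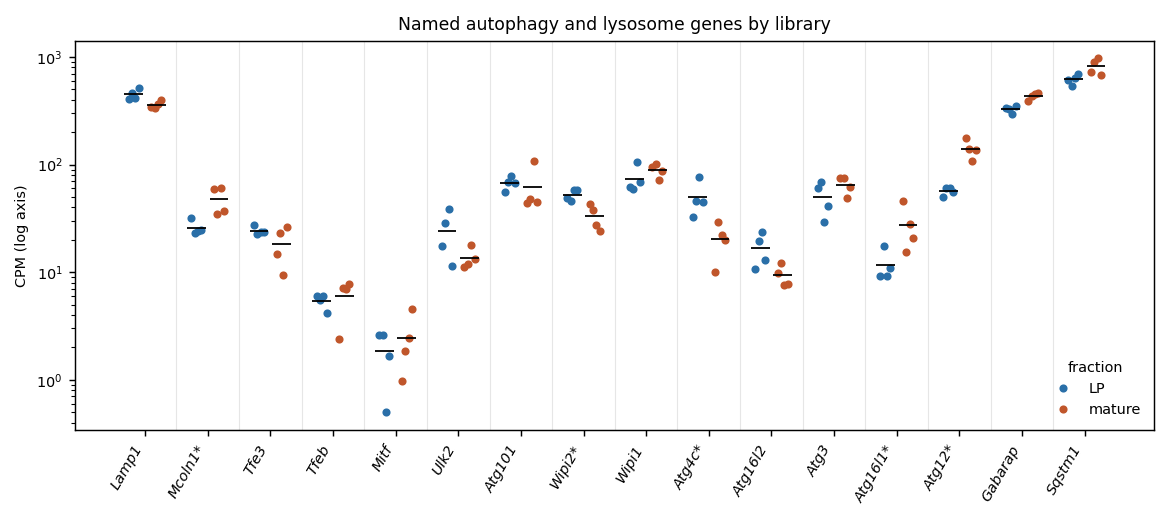
CPM on a log axis of the named autophagy and lysosome genes in each LP (blue) and mature (orange) library, with black bars for the mean of 4 libraries and asterisks on genes with an adjusted p under 0.05; Atg9b is left out because it has libraries at 0. Atg12 separates the fractions most clearly, at 50.4 to 60.8 CPM in LP and 107 to 178 CPM in mature cells.

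None of the 5 Atg8 family genes passed in edgeR's quasi-likelihood test, and neither did any of the 4 cargo receptor genes. In each group 1 gene had an unadjusted p under 0.05, and DESeq2 called 1 Atg8 gene, Gabarap, and 0 cargo receptor genes. Gabarap, with the most CPM per kilobase of the Atg8 genes as the mean of the fractions (in LP alone Map1lc3a was higher, at 181 against 177), was at 336, 326, 297 and 348 CPM in LP and at 389, 432, 453 and 459.9 CPM in mature cells. The fractions did not overlap, and the log2 fold change was -0.41 ± 0.14 (adjusted p = 0.0579, edgeR). In CPM alone Map1lc3b was the highest Atg8 gene, at means of 858 in LP and 746 in mature cells. It did not pass (log2 0.20 ± 0.16, adjusted p = 0.387, edgeR). Its exon length was 7517 bases against 1844 for Gabarap, which lowers its value per kilobase. As a share of all Atg8 transcripts per kilobase, Gabarap was 26.4% to 32.2% in LP and 34.5% to 38.2% in mature cells, and Map1lc3a, a member of the LC3 branch, was 26.3% to 31.9% in LP and 19.3% to 25.9% in mature cells. These shares did not overlap between the fractions and were not tested. Sqstm1, which encodes the receptor p62, was the most abundant receptor gene per kilobase. It was at 537 to 703 CPM in LP and 674 to 970.3 CPM in mature cells (log2 -0.40 ± 0.18, adjusted p = 0.13, edgeR). Sqstm1 shared 15.5% of its stretches of read length with the transcript Mrnip.

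The non-overlapping members were 11 of the 13 called ones and 4 that did not pass, namely Lamp1 with LP higher and Gabarap, Becn1 and Atg2a with mature higher. Becn1 and Atg2a, a lipid transfer protein, were named after their values were seen. Their adjusted p were 0.0559 and 0.074 by edgeR.

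Beside the members, 40 further genes of the pathway were examined, among them V-ATPase accessory and assembly proteins, autophagy regulators, mitophagy receptors and lysosomal proteins. Of these, 10 passed and all 10 were higher in mature cells, a called share of 25% beside 24.7% of all tested genes in either direction and 13.8% with mature higher. Other fits called 1 gene higher in LP, namely Dmxl1, Scarb2 or Rogdi, so the direction was not uniform. The largest difference was in Bnip3, a mitophagy receptor on mitochondria, at 129 to 181 CPM in LP and at 1472, 1791, 476 and 519 CPM in mature cells. Mature replicates 1 and 2 were far higher than 3 and 4, and all were above LP (log2 -2.83 ± 0.43, adjusted p = 0.00127, edgeR). The related receptor Bnip3l had the same order of pairs, with 550.4, 637, 277 and 266 CPM in mature cells and 134 to 194 CPM in LP (log2 -1.39 ± 0.29, adjusted p = 0.00682, edgeR). The fibroblast list, through Dcn, was also highest in mature replicates 1 and 2, where the LP markers were lowest. In these libraries its other genes were lower than Dcn, with Col1a1 at 0, Col3a1 at 1.83 and 2.63 CPM and Pdgfra at 0.562 and 16.3 CPM. The Pdgfra value in mature replicate 2 was its highest in any library. The part of either list in the Bnip3 and Bnip3l values was not tested.

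Genes of membrane expansion and remodelling were among the 10. Vmp1 and Tmem41b encode lipid scramblases of the endoplasmic reticulum, with log2 fold changes of -1.06 ± 0.17 and -1.12 ± 0.25. Retreg1, a receptor for turnover of the endoplasmic reticulum, was at 103 to 124 CPM in LP and 199 to 251 CPM in mature cells (log2 -1.01 ± 0.15, adjusted p = 0.00112, edgeR). Wdr45b, a relative of the Wipi genes, had a log2 fold change of -0.72 ± 0.16. For the fusion of autophagosomes with lysosomes, Snap29 had -0.75 ± 0.22 and Plekhm1 -1.15 ± 0.30 on the log2 scale. The lysosomal cholesterol carrier Npc2 had -0.82 ± 0.19, and Atp6ap2, a V-ATPase accessory subunit, -0.45 ± 0.15 with an adjusted p of 0.0478 by edgeR. In all 10 the fractions did not overlap. Over the 40 genes this held for 13 (32.5%, beside 29.5% of all tested genes). Mature was higher in 12 of them (beside 15.5%) and LP in 1 (beside 14.0%). The genes called higher in mature cells were 7 without mature replicate 1 and 10 without mature replicate 3. They were 8 in each other fit that left out 1 library. Of all genes, 17.8% to 26.2% were called in these fits, in either direction. Vmp1, Bnip3 and Bnip3l are in the study's mature gene set, made from these samples, which is no independent evidence.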

How the data were processed

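The authors sorted luminal progenitors and mature luminal cells, amplified cDNA from total RNA with a low-input kit, used cutadapt for trimming and Bowtie2 for alignment to mm10 (versions 4.2 and 2.3.5.1 in the submitters' processing notes) and deposited raw counts per gene, with no normalization, for 24594 Entrez genes. The counting program, its annotation, its strand setting and its handling of reads with several matches are not given in the sources used here. The study's methods give a replicate number per condition that differs from the 4 libraries per fraction in the table, and all 8 were used.

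Symbols came from the RefSeq annotation of mm10, which matched 24570 IDs, and exon lengths from GENCODE. Each length was the union of all annotated exons of a gene, so ranks and shares per kilobase depend on its annotated isoforms. Counts were normalized by TMM and filtered with filterByExpr, which kept 12816 genes, and the fractions were compared in edgeR 4.0.16 (limma 3.58.1, R 4.3.3) with its quasi-likelihood test, two-sided, adjusting p over all of them by Benjamini-Hochberg, with a threshold of 0.05. The SE given with a fold change is the log2 value's size over the root of F. CPM are counts scaled by TMM-adjusted library totals, with nothing added. Tables were made with Python 3.11.15, pandas 2.3.3 and scipy 1.17.1, and the fit was tested on simulated data. Library totals of 4410049 to 7791593 set the counting precision, so genes at a few CPM carry more counting error.

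Members, roles and lists were chosen with earlier results of these data known. Named members were all called ones, in each role the most abundant per kilobase and the uncalled one with the largest log2 fold change, members of the study's gene sets and the 3 MiT/TFE factors, and of the further pathway genes the 10 called. The 17 alternatives were RLE and upper-quartile factors, no filter, a minimum of 10 counts in each library, the likelihood ratio and exact tests of edgeR, DESeq2 1.42.0, a replicate block, each library left out and both libraries numbered 3 left out. The fit without mature replicates 3 and 4 was added after the data were seen.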

Additional observations from a re-analysis of the deposited data

Results flagged for a closer look

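A library was marked where its gap to the nearest other library of its fraction was too large a part of that fraction's range by Dixon's limit for 4 libraries. Of 58 groups of libraries examined, 5 were marked, where chance gives about 1 in 20, or 2.9. Atg101 was at 107.7 CPM in mature replicate 3 with the other mature libraries at 44.4 to 48.1 CPM. Atg9b was at 2.32 CPM in LP replicate 1 and at 0 in the other LP libraries. Atp6v1f was at 221 CPM in mature replicate 4 against 191 to 193 CPM in the other mature libraries. Mcoln1 was at 32.1 CPM in LP replicate 1 against 23.0 to 24.6 CPM in the other LP libraries. Tfeb was at 2.39 CPM in mature replicate 1 against 6.93 to 7.84 CPM in the other mature libraries.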

How the results depend on the processing

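The count of 13 called members (23.2% of members, beside 24.7% of all genes) became 13 with RLE and with upper-quartile factors (23.2% beside 24.7% in both), 10 with no filter (16.9% beside 15.4%), 14 with at least 10 counts in every library (26.9% beside 29.2%), 15 with the likelihood ratio test (26.8% beside 29.2%), 14 with the exact test (25% beside 28.5%), 16 with DESeq2 (28.6% beside 29.6%) and 11 without both libraries numbered 3 (19.6% beside 23.1%). Leaving out each library in turn gave 6 to 12 called members, of which 3 to 8 had more transcript in LP and 2 to 5 in mature cells. With no filter, which lost Atg16l1, Atp6v0e and Atp6v1f, 3 members were higher in mature cells, and without mature replicates 3 and 4 there were 9 called members, 2 of them higher in mature cells. Atg12, Atp6v1a and Atp6v1b2 were called in all 18 alternatives, and Atp6v0e2 in the 17 set at the start. Leaving out each library in turn moved Mitf between -0.66 and 0.093 and Tfeb between -0.42 and 0.011 (log2), both reversed without mature replicate 4, and they reversed to 0.45 and 0.26 without mature replicates 3 and 4; the cause was not tested. Of 520 alternative values for single named members, 452 kept their direction and side of the threshold, 54 lost a call and 10 gained one. Only a called member can lose a call, so all 54 losses fell on the 13 called members. With the replicate number as a block, 10 members were called (17.9% beside 23.6% of all genes), all among the 13, and Atg16l1, Atp6v0e and Wipi2 were lost. The LP and mature libraries of a replicate share a number in their descriptions, which is not said to mark a mouse: deviations from the fraction means correlated at 0.11, 0.06, 0.15 and 0.08 between libraries of the same number, and mature replicate 2 correlated best with LP replicate 1. Members at a few CPM or less in every library, such as Atg9b, Mitf and Atp6v1c2, carry more counting error.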
